A study of Mus musculus with 20 samples.

Results

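The response of the cerebellum to a null mutation of NHE1 was compared with that of the brain stem-diencephalon, the tissue block that joins the brain stem to the thalamus and hypothalamus. The comparison used 8 of the 20 mouse cDNA arrays of the series, 4 from cerebellum and 4 from brain stem-diencephalon. They were chosen by the region in their titles, without a dye-swapped array that was deposited under both regions. Each array set amplified RNA of an NHE1 null mutant brain region, in one channel, against a wild-type pool of that region in the other. Cerebellum was represented by 3 arrays with null RNA in channel 1 and by the dye swap of number 2. Brain stem-diencephalon was represented by 3 arrays with null RNA in channel 1 and by the dye swap of number 1. Arrays of one region and number were averaged, which gave 3 replicates for each region. The sources used here do not give the strain, age or sex of the mice, the allele, or whether different numbers stand for different animals. The p-values therefore measure only how these samples vary, which may be technical, and variation among wild-type mice is left out. An array held values for 10774 to 13950 probes, and the precision is limited by how few arrays there are.

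NHE1 is a sodium/proton exchanger of the plasma membrane. It exports protons in exchange for sodium and so controls the pH and the volume of the cell. Mice that lack it are known for ataxia and seizures, and loss of neurons in the cerebellum and brain stem is known from a spontaneous mutant line. Neurons that release catecholamines have their cell bodies in the brain stem and diencephalon, and some send fibres to the cerebellum. Catecholamine synthesis starts with tyrosine hydroxylase, which is also transcribed in some Purkinje cells of the mouse cerebellum.

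The regions could not be checked by marker levels, because the deposited values are ratios within a region and not levels. All values below are log2 ratios of null over wild type, or differences between those ratios, cerebellum minus brain stem-diencephalon. That direction is likely only, since the sources used here state neither the channel order nor the log base. With the reverse order, every sign would turn. As deposited, cerebellum arrays of opposite orientation correlated across probes at a median of -0.42 over 3 pairs, and brain stem-diencephalon arrays at 0.0142. Pairs of one orientation correlated at 0.371 in cerebellum and 0.504 in brain stem-diencephalon. The swapped arrays were turned as the labels have it, and for brain stem-diencephalon these correlations do not settle that step. Gene by gene, the fit held a term for orientation, so a fitted ratio can lie off the mean of its replicates.

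The regions differed at 2 of 9887 features, both higher in cerebellum. They were Th, which encodes tyrosine hydroxylase, and probe 6396, a probe with no gene name in the tables used here. Among the 9887 features, 6055 were genes and 3832 were probes that could not be given one gene name. A feature was called where limma's moderated test gave a Benjamini-Hochberg adjusted p under 0.05, so 0.0202% of the features were called. The lowest adjusted p among the others was 0.5 (limma).

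Th stood at 2.16, 1.35 and 1.58 on the channel 1 arrays of cerebellum and at 1.47 on its swapped array. On the brain stem-diencephalon arrays it stood at -0.08, 0.42 and 0.16, and at -0.16 on the swapped array. All 4 cerebellum arrays lay above all 4 brain stem-diencephalon arrays, in either orientation. The replicates averaged 1.72 ± 0.39 in cerebellum and 0.157 ± 0.27 in brain stem-diencephalon (SD, n = 3 each). The difference of the ratios was 1.56 ± 0.22 (SE), or 2.95-fold, with an interval of 1.09 to 2.04 at 95% confidence (limma's moderated test, adjusted p = 0.0298). The channel 1 arrays alone gave a difference of 1.53 and the swapped pair 1.63. That pair sets cerebellum number 2 against brain stem-diencephalon number 1, so region and number cannot be told apart in it. Tested against 0, the cerebellum ratio of Th was 1.60 (adjusted p = 0.00103) and that of brain stem-diencephalon 0.04 (adjusted p = 0.95), both from limma. These values rest on a single probe for Th.

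Probe 6396 stood at 1.71 and 2.25 on the channel 1 arrays of cerebellum numbers 1 and 2 and at 1.62 on the swapped array, with no value on number 3. The brain stem-diencephalon arrays gave 0.30, 0.47 and -0.07, and the swapped array 0.06. As with Th, no array of one region reached the range of the other. The difference was 1.64 ± 0.18 (SE, n = 2 against 3), or 3.11-fold, with an interval of 1.25 to 2.02 (limma's moderated test, adjusted p = 0.00777). This probe falls outside the rule for named genes and was chosen after its values were seen.

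**Figure D1:**
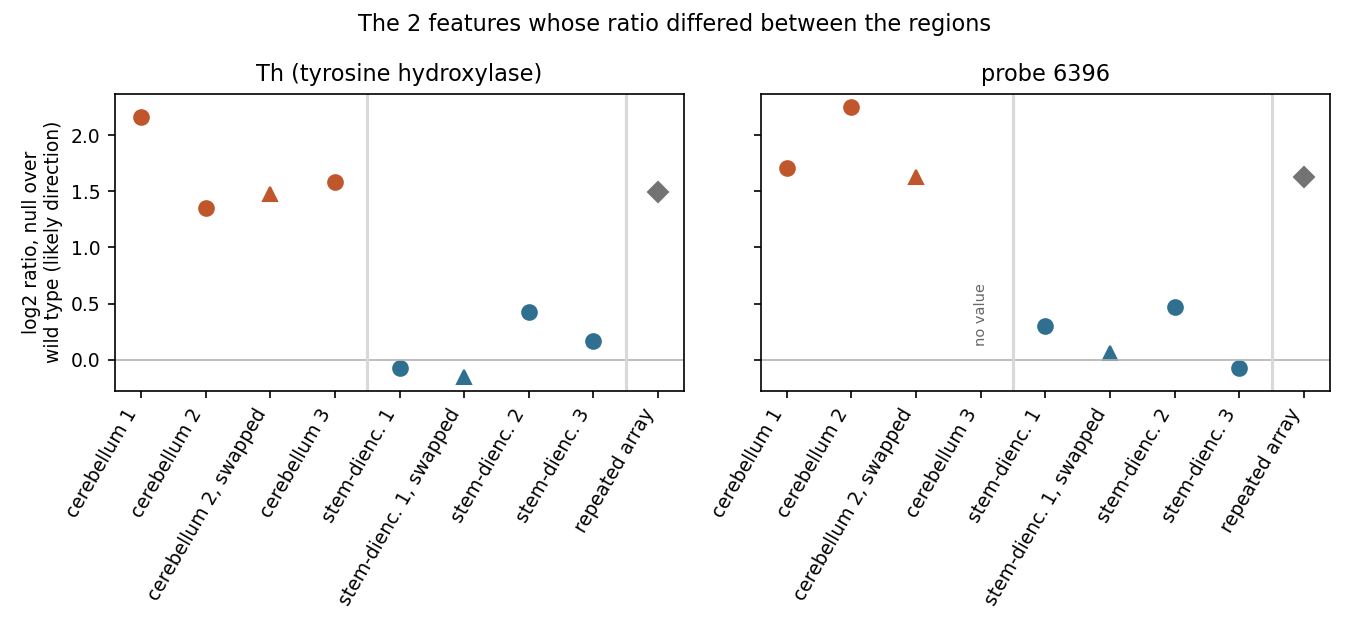
Log2 ratio of null over wild type for Th (left) and probe 6396 (right) on each array, with channel 1 arrays as circles and swapped arrays as triangles, already turned. Every cerebellum array with a value lay at 1.35 or above and every brain stem-diencephalon array at 0.47 or below. The grey diamond is the array deposited under both regions, which was not used.

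The array that was left out had values for both features. It appears as a dye swap of cerebellum number 1 and of brain stem-diencephalon number 2, and the copies correlated at 0.995 over 6748 probes. Once turned, it gave 1.49 for Th and 1.63 for probe 6396, both within the range of the cerebellum arrays. Its correlation across probes was 0.672 with the swapped cerebellum array and 0.518 with the swapped brain stem-diencephalon array, which share its orientation. The sources used here do not tell which region its RNA came from. With the array counted in cerebellum, both features were still called. With it counted in brain stem-diencephalon the difference of Th was 1.34 (limma's adjusted p = 0.698), and with it in both regions 1.27 (adjusted p = 0.67).

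The calls also depended on single replicates. The difference of Th ranged from 1.36 to 1.67 when any one of the 6 replicates of the regions was left out, and it passed the threshold in 0 of those 6 fits. Probe 6396 ranged from 1.49 to 1.80. It passed in the fits without brain stem-diencephalon number 2 or number 3, but not without number 1 of that region. It also passed without cerebellum number 3, where it has no value, so that fit removed none of its data. Without cerebellum number 1 or number 2, a single cerebellum replicate was left for it. The Y-linked gene Eif2s3y, a translation initiation factor subunit, separated number 1 from the others. It stood at -0.77 on cerebellum number 1, against 1.33, 1.59 and 1.44 on the other cerebellum arrays. In brain stem-diencephalon it stood at -0.65 and -0.44 on the number 1 arrays, against 0.93 and 1.33 on the others. Between the regions, Eif2s3y differed by 1.88 in the swapped pair, which joins different numbers, and by 0.18 on the channel 1 arrays. The array deposited under both regions gave 1.71 for Eif2s3y. It thus lay apart from cerebellum number 1, although one of its titles makes it the dye swap of that number. The X-linked gene Xist stood at -0.12 on cerebellum number 1, against 0.11, 0.33 and 0.39 on the others. In brain stem-diencephalon Xist stood at -0.001 and 0.07 on the number 1 arrays, against -0.13 and 0.05 on the others, so there number 1 did not stand apart. Whether the sex of the mice differed was not tested. Without number 1 in every region, the difference of Th was 1.26 (limma's adjusted p = 0.329), that of probe 6396 was 1.74 (adjusted p = 0.418), and no feature was called (675 at an unadjusted p under 0.05). That alternative was chosen after seeing the data.

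**Figure D2:**
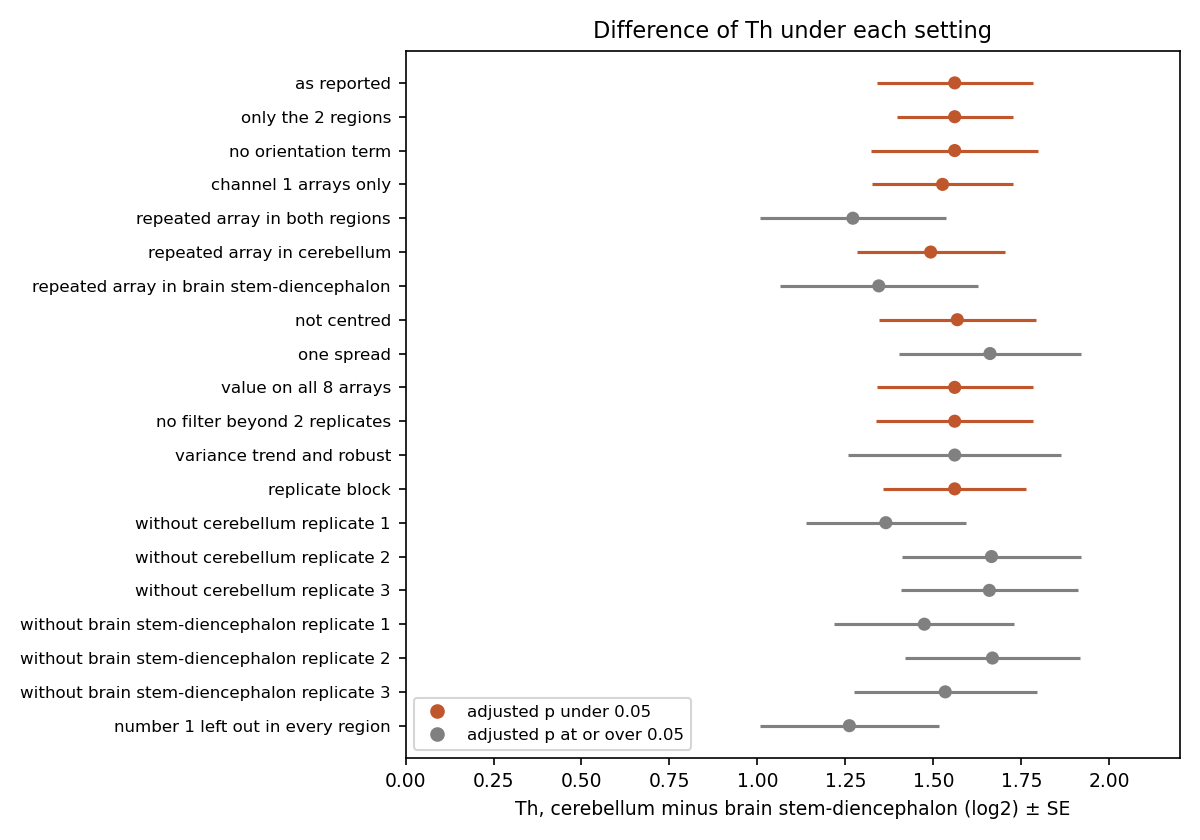
Difference of Th between the regions (cerebellum minus brain stem-diencephalon, log2, with SE bars) as reported and under 19 other settings. The difference stayed between 1.26 and 1.67, and it passed the adjusted threshold in 8 of the 19 (orange).

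The other regions of the series give a scale for these ratios. Th had a median ratio of 1.58 in cerebellum (range 1.41 to 2.16, n = 3) and 0.162 in brain stem-diencephalon (-0.116 to 0.424, n = 3). In cortex the median was 0.637 (-0.152 to 0.745, n = 4) and in hippocampus 0.333 (0.139 to 0.506, n = 3). Cerebellum thus lay above the whole range of the other regions, whose ranges overlapped each other. Probe 6396 lay between -0.53 and -0.178 in cortex (n = 3) and between -0.075 and -0.0516 in hippocampus (n = 3), below its 2 cerebellum replicates.

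The other genes of catecholamine synthesis and handling did not follow Th past the threshold. Of 5 measured, with Th counted among them, 4 had a positive difference, with a median of 0.0932 beside -0.00334 for all features. Aldh1a1, an aldehyde dehydrogenase found in dopamine neurons, had the next largest difference at 0.22 ± 0.13. Its replicates narrowly did not overlap, with -0.15 the lowest in cerebellum and -0.16 the highest in brain stem-diencephalon. Its single arrays did overlap. Maoa, which breaks down monoamines, differed by 0.09 ± 0.13. Qdpr, which regenerates the tetrahydrobiopterin cofactor of tyrosine hydroxylase, differed by -0.02 ± 0.17. Ywhah, a 14-3-3 protein of the kind that binds tyrosine hydroxylase, differed by 0.01 ± 0.13 (SE, n = 3 each).

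Across all features the difference was small beside its error. The median absolute difference was 0.109, and the median SE was 0.159. Its interval at 95% confidence, which is not adjusted for the number of tests, reached a median of 0.344 to either side. Differences smaller than that were mostly not detectable with these arrays. Larger ones also failed the adjusted threshold, such as 0.997 for the gene Ptpn6 (limma's adjusted p = 0.536). An unadjusted p under 0.05 was reached by 442 features, or 4.47%, of which 226 (2.29%) were higher and 216 (2.18%) lower in cerebellum. The replicates of the regions did not overlap at 1356 features, or 13.7%, with 626 (6.33%) higher and 730 (7.38%) lower in cerebellum. A difference of at least 1.5-fold was fitted at 69 features, or 0.698%. The fitted ratios of the regions correlated across features at a Pearson r of 0.69 and a Spearman rho of 0.6, and 71.1% of the features had one sign in both. Features are not independent replicates, and all arrays share the platform and the amplification.

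**Figure D3:**
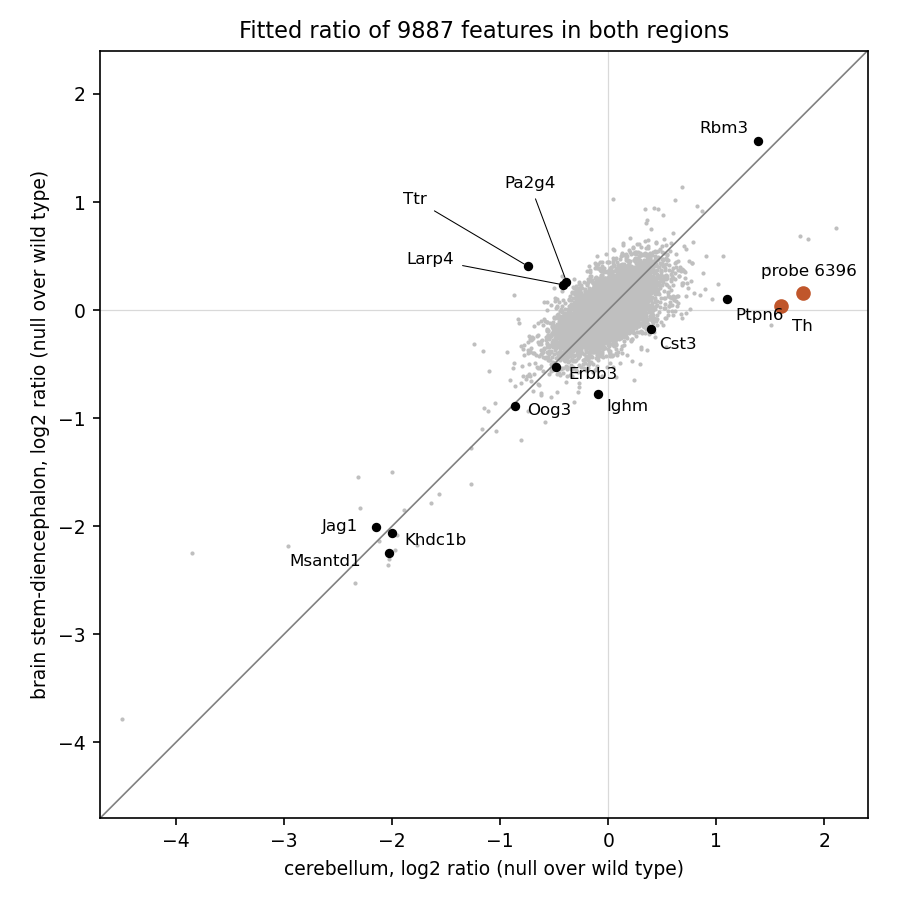
Fitted log2 ratio of null over wild type in cerebellum (horizontal) and in brain stem-diencephalon (vertical) for 9887 features, with the diagonal of equal ratios. Orange marks Th and probe 6396, which lay near 1.60 and 1.80 in cerebellum and near 0.04 and 0.16 in brain stem-diencephalon. Rbm3, Jag1, Khdc1b and Msantd1 lay close to the diagonal.

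Next to Th, genes with a small p and separate replicates were examined, 12 higher and 12 lower in cerebellum. A filter on symbols of expressed-sequence type, a C or D with a number, also took out C1qb, whose p would have placed it among the 12 higher and which is described with the microglial markers. None but Th passed the adjusted threshold. Of the 12 higher genes, 10 had a ratio above 0 in cerebellum and 9 a ratio below 0 in brain stem-diencephalon. Of the 12 lower genes, 11 had a ratio below 0 in cerebellum and 11 a ratio above 0 in brain stem-diencephalon. The signs of the regions were opposite for 7 of the higher and 10 of the lower genes. The fold of the difference was 1.28 to 2.95 for the higher genes and 1.34 to 1.57 for the lower ones. On single arrays, 19 of the 24 genes did not overlap, and Abcf1, Tbc1d9b, Parva, Fsd1 and Sdhb did. The swapped pair alone gave the sign of the fit for 23 of the 24, all but Abcf1. The selection largely fixes these counts of signs and of separate arrays, since every array entered the replicates it used.

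Ptpn6, the tyrosine phosphatase SHP-1 of blood and immune cells, came next after Th among the genes higher in cerebellum. Its ratios were 1.42 and 1.41 on the channel 1 arrays of cerebellum numbers 2 and 3 and 1.15 on the swapped array, with no value on number 1. In brain stem-diencephalon they were 0.26, 0.62 and 0.52, and 0.05 on the swapped array. The cerebellum arrays lay higher without overlap, and the difference was 0.997 ± 0.2 (SE, n = 2 against 3), with an unadjusted p of 0.000379 and an adjusted p of 0.536 (limma). Cst3, the secreted protease inhibitor cystatin C, had replicates at 0.64, 0.43 and 0.23 in cerebellum and at -0.08, -0.28 and -0.10 in brain stem-diencephalon. Fth1, the ferritin heavy chain that stores iron, had replicates at 0.28, 0.20 and 0.15 in cerebellum, against -0.10, -0.21 and -0.12 in brain stem-diencephalon. Cst3 and Fth1 thus lay above 0 in every cerebellum replicate and below 0 in every brain stem-diencephalon replicate, with differences of 0.57 ± 0.15 and 0.35 ± 0.12 (SE, n = 3 each).

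For Ighm and Naip3 the separation came from the brain stem-diencephalon side. Ighm, the constant region of the immunoglobulin mu chain, had replicates at -0.34 and 0.11 in cerebellum and at -0.65, -0.74 and -1.01 in brain stem-diencephalon. Naip3, of the NAIP family of inflammasome receptors, had replicates at -0.10, -0.24 and -0.31 in cerebellum and at -0.40, -0.69 and -0.87 in brain stem-diencephalon. Both were called against 0 in brain stem-diencephalon (limma's adjusted p = 0.0186 for Ighm and 0.0165 for Naip3). The differences were 0.68 ± 0.17 and 0.44 ± 0.15 (SE). The 3 probes of Naip3 did not match: the differences of their medians over arrays were 0.71, -0.20 and 0.41. The Naip family holds near-identical copies, so the probe signal may be shared among them.

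The other higher genes were Cdk8, a kinase of the Mediator complex (0.74 ± 0.24), Trim62, a ubiquitin ligase (0.42 ± 0.13), and Mindy1, a deubiquitinase (0.42 ± 0.13). They also included Mrps25, a protein of the mitochondrial ribosome (0.42 ± 0.15), Alms1, a protein of the centrosome and basal body (0.37 ± 0.13), and Abcf1, which acts in translation initiation (0.37 ± 0.13). Their unadjusted p lay at 0.0048 or above, and limma's adjusted p was 0.998 for each. The swapped pair alone gave -0.04 for Abcf1 and 0.00 for Alms1, so their differences were seen on the channel 1 arrays only. That pair joins different numbers, so an effect of orientation cannot be told apart from one of number.

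Among the genes lower in cerebellum, Pa2g4 came first. It encodes EBP1, a protein that binds the receptor ErbB3 and takes part in ribosome synthesis. Its arrays gave -0.23, -0.30 and -0.32 in cerebellum, with -0.50 on the swapped array. The brain stem-diencephalon arrays gave 0.30, 0.61 and 0.32, with -0.15 on the swapped array. The swapped brain stem-diencephalon array stood apart from the other 3 but still above all cerebellum arrays. The difference was -0.65 ± 0.14 (SE, n = 3 each), with an unadjusted p of 0.000303 and an adjusted p of 0.5 (limma). Larp4, an RNA-binding protein that acts on poly(A) tails, had replicates at -0.18, -0.25 and -0.45 in cerebellum and at 0.20, 0.28 and 0.59 in brain stem-diencephalon, a difference of -0.65 ± 0.15.

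The glycolysis and oxidative phosphorylation lists had a gene each among the 12. Pfkfb3, which makes the activator of glycolysis fructose-2,6-bisphosphate, had replicates at -0.26, -0.40 and -0.64 in cerebellum and at 0.14, 0.08 and -0.01 in brain stem-diencephalon. Sdhb, the iron-sulphur subunit of succinate dehydrogenase, had replicates at -0.21, -0.16 and -0.12 in cerebellum and at 0.84, 0.18 and 0.09 in brain stem-diencephalon. For Sdhb, replicate 1 of brain stem-diencephalon joined arrays that did not match, at 1.85 in channel 1 and -0.18 on the swap, and the swap lay within the range of the cerebellum arrays. The differences were -0.50 ± 0.14 for Pfkfb3 and -0.53 ± 0.16 for Sdhb (SE). The rest were Tbc1d9b, of a family of Rab regulators (-0.51 ± 0.13), Parva, which links integrins to actin (-0.52 ± 0.14), Fsd1, a microtubule-binding protein (-0.52 ± 0.15), and Pcolce, an enhancer of procollagen cleavage (-0.46 ± 0.14). Rnf141 (-0.45 ± 0.13), Ccdc43 (-0.42 ± 0.12), Fhad1 (-0.46 ± 0.14) and the glycosyltransferase B3gnt2 (-0.49 ± 0.15) completed the group. Limma's adjusted p was 0.998 for each but Pa2g4. Of all these genes lower in cerebellum, Fsd1 alone was called against 0 there, at -0.62 (limma's adjusted p = 0.0215).

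**Figure D4:**
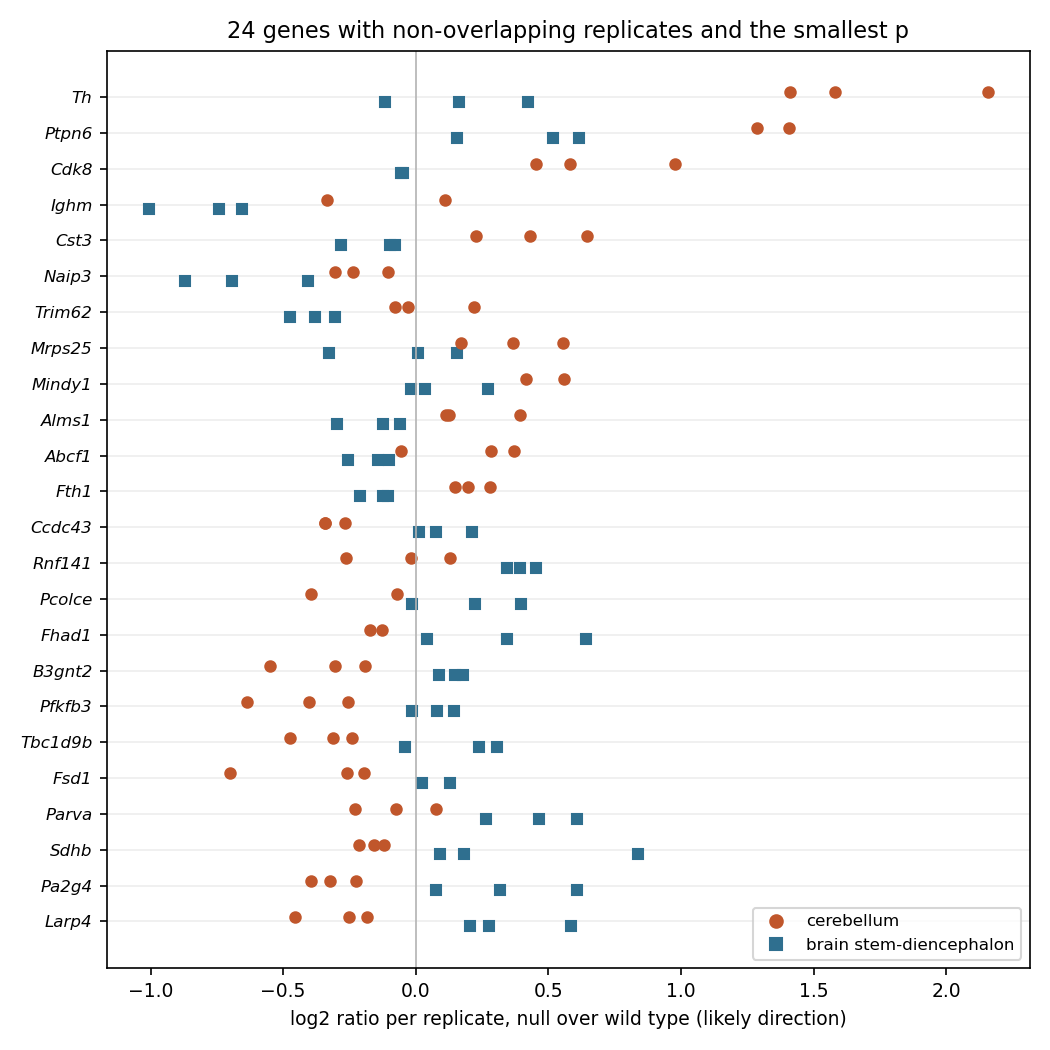
Log2 ratio of null over wild type in each cerebellum replicate (orange circles) and each brain stem-diencephalon replicate (blue squares) for the 24 genes, ordered by the fitted difference. The selection requires that the replicates, not the single arrays, do not overlap. Only Th passed the adjusted threshold.

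Tested against 0, 56 features were called in cerebellum (0.566%) and 27 in brain stem-diencephalon (0.273%). In cerebellum 14 (0.142%) were likely higher and 42 (0.425%) lower in null RNA, and in brain stem-diencephalon 1 (0.0101%) was higher and 26 (0.263%) were lower. The overlap held 20 features, which are 35.7% of the cerebellum calls and 74.1% of the brain stem-diencephalon calls, and all 20 had one sign in both regions. Of the 36 features called in cerebellum only, 35 had the same sign in brain stem-diencephalon, and the difference itself was called for 2, Th and probe 6396 (19 at an unadjusted p under 0.05). Of the 7 called in brain stem-diencephalon only, all had the same sign in cerebellum, and the difference was called for none (4 at an unadjusted p under 0.05 in limma's test).

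The fitted ratios of the 7 genes called in both regions lay within 0.23 of each other. Rbm3, a cold-inducible RNA-binding protein, had replicates at 0.86, 1.75 and 1.46 in cerebellum and at 1.20, 1.60 and 1.78 in brain stem-diencephalon. Jag1, a Notch ligand, had replicates at -2.33 and -1.71 in cerebellum and at -2.14, -1.47 and -2.15 in brain stem-diencephalon. The replicates overlapped for both genes, and the interval of the difference was -0.64 to 0.30 for Rbm3 and -0.77 to 0.49 for Jag1. Erbb3, a receptor tyrosine kinase of the neuregulin pathway, had fitted ratios of -0.48 in cerebellum and -0.53 in brain stem-diencephalon, with an interval of -0.22 to 0.30 for the difference. Oog3, known from the oocyte, had ratios of -0.86 and -0.89 in that order, with an interval of -0.40 to 0.46. Khdc1b (-2.0 in cerebellum, -2.06 in brain stem-diencephalon), Xpo4, a nuclear transport receptor (-1.96 and -2.08), and Msantd1 (-2.03 and -2.25) had wider intervals, the widest -0.69 to 1.14 for Msantd1. These intervals leave room for differences of up to about that size. Another probe of Xpo4 and another of Khdc1b, which had values on 2 or 3 arrays per region and failed the filter, did not show these low ratios. Their medians were 0.29 for Xpo4 and 0.15 for Khdc1b in cerebellum, and -0.31 for each in brain stem-diencephalon.

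Cirbp, the relative of Rbm3 that is also induced by cold, had replicates at 0.48, 0.50 and 0.60 in cerebellum and at 0.33, 0.24 and 0.34 in brain stem-diencephalon. The replicates did not overlap, but the difference of 0.22 ± 0.12 had an interval of -0.04 to 0.49 (limma's adjusted p = 0.998).

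The genes called in cerebellum only had ratios toward the same side in brain stem-diencephalon in most cases. Mef2a, a transcription factor of neurons and muscle, had 0.64 in cerebellum and 0.37 in brain stem-diencephalon, and Itm2c, a neuronal membrane protein, had 0.53 and 0.37. Elovl5, which lengthens polyunsaturated fatty acids, had -0.73 in cerebellum and -0.59 in brain stem-diencephalon. Rph3a, a Rab3 effector of synaptic vesicles, had -0.73 in cerebellum and -0.39 in brain stem-diencephalon. Car7, a cytosolic carbonic anhydrase of neurons, had -0.67 in cerebellum and -0.49 in brain stem-diencephalon. Ptpn6 and Fsd1, also called in cerebellum only, had ratios that lay further apart. Ptpn6 had 1.10 in cerebellum (limma's adjusted p = 0.0209) and 0.10 in brain stem-diencephalon, and Fsd1 had -0.62 and -0.10 in that order. A call in one region and none in the other was thus not matched by a called difference for any of these genes.

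Markers of cell types were set beside these results. In tissue samples, fewer cells of a type and less RNA per cell cannot be told apart. All 6 measured markers of cerebellar neurons had a positive difference, with a median of 0.264, beside -0.00334 for all features, and none was called. The replicates of the regions overlapped for each of the 6. Cbln1, the synapse organiser released by granule cells, had replicates at 0.00, 0.00 and -0.32 in cerebellum and at -0.72, -0.62 and -0.27 in brain stem-diencephalon. Car8, a Purkinje cell protein that binds the IP3 receptor, had replicates at -0.56, 0.31 and 0.04 in cerebellum and at -0.29, -0.72 and -0.60 in brain stem-diencephalon. Both overlapped between the regions, and both lay near 0 in the cerebellum fit, at -0.11 for Cbln1 and 0.04 for Car8. Their differences of 0.43 ± 0.15 and 0.47 ± 0.18 came from ratios of -0.54 and -0.43 in brain stem-diencephalon. The Purkinje markers Calb1, Pcp2 and Gng13 differed by 0.13, 0.08 and 0.17, with SE of 0.15 to 0.21. Rora, a nuclear receptor of Purkinje cells, differed by 0.36 ± 0.35.

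All 5 measured markers of brain stem and diencephalon neurons had a negative difference, with a median of -0.15, and none was called. Their replicates overlapped between the regions as well. Tph2, which starts serotonin synthesis in the raphe, differed by -0.15 ± 0.14. Nefl, the light neurofilament, differed by -0.27 ± 0.22, and Trh, the thyrotropin-releasing hormone of the hypothalamus, by -0.08 ± 0.17. Sncg, a synuclein, differed by -0.05 ± 0.12, with ratios of -0.26 in cerebellum and -0.21 in brain stem-diencephalon. The ratios of Tph2, Nefl and Trh in brain stem-diencephalon lay between -0.08 and 0.02.

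Markers of microglia and other immune cells had a median difference of 0.232, with 7 of 9 positive and none called. The complement subunit C1qb had replicates at 1.08, 0.36 and 0.28 in cerebellum and at -0.02, 0.05 and -0.15 in brain stem-diencephalon. The replicates did not overlap, and the difference was 0.60 ± 0.20, with an unadjusted p of 0.0094 (limma's adjusted p = 0.998). Its partners in the C1q complex, C1qa and C1qc, differed by 0.32 ± 0.21 and 0.23 ± 0.18. The lysosomal protease Ctsd differed by 0.44 ± 0.17 and the Fc receptor gamma chain Fcer1g by 0.38 ± 0.16, both with separate replicates. The swapped brain stem-diencephalon array of Fcer1g, at 0.31, lay within the range of its cerebellum arrays. The same held for array number 3 of brain stem-diencephalon for Ctsd (0.22) and for the swapped brain stem-diencephalon array for C1qa (0.35). In all, 4 of the 9 had replicates that were higher in cerebellum without overlap, beside 6.33% of all features. With the repeated array counted in both regions, the median of the list was 0.115. The part of microglia in the differences of Ptpn6 and Cst3 was not tested.

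Astrocyte markers had a median difference of 0.136, with 6 of 8 positive. Mt1, a metal-binding protein, differed by 0.45 ± 0.17 and Aldoc, the brain aldolase, by 0.30 ± 0.14, while Slc1a3, the glutamate transporter of Bergmann glia, differed by 0.16 ± 0.13. Myelin markers had a median of -0.103 with 1 of 5 positive, where Mbp differed by 0.23 ± 0.22 and Ndrg1 by -0.39 ± 0.18. Vessel and blood markers had a median of -0.0131. None of these markers was called.

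Ttr, the thyroxine carrier of the choroid plexus, had the largest difference and the largest SE of the choroid plexus and meninges list. Its cerebellum arrays gave 0.58, -2.67 and -0.23, with -0.40 on the swapped array of number 2. Its brain stem-diencephalon arrays gave 1.87 and 0.26 on numbers 2 and 3 and -0.40 on the swapped array, with no value on the channel 1 array of number 1. The arrays of the regions overlapped, and the 2 arrays of cerebellum number 2 did not match. The difference was -1.15 ± 0.45 (SE, limma's adjusted p = 0.998). The list had 3 of 9 members above 0 and a median of -0.0888, and Otx2, a transcription factor of the choroid plexus, differed by 0.01 ± 0.17.

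Genes of acid-base transport, the process NHE1 serves, had a negative difference in 12 of 16 cases, with a median of -0.118 beside -0.0229 for all genes with a symbol. Slc4a8, a sodium-driven chloride/bicarbonate exchanger of neurons, had replicates at -0.01, 0.14 and -0.07 in cerebellum and at 0.26, 0.43 and 0.42 in brain stem-diencephalon. Chp1, the calcineurin-like protein that binds NHE1 and is needed for its activity, had replicates at -0.31, 0.15 and -0.25 in cerebellum and at 0.28 and 0.35 in brain stem-diencephalon. Both genes were lower in cerebellum without overlap, with differences of -0.35 ± 0.12 for Slc4a8 and -0.41 ± 0.17 for Chp1, and neither passed the adjusted threshold (limma's adjusted p = 0.998). Slc4a8 had no value on a swapped array. For Chp1 the swapped arrays gave 0.48 in cerebellum and 0.51 in brain stem-diencephalon, so its difference was seen on the channel 1 arrays only. Orientation and number cannot be told apart there. The largest difference of the list was that of Car8, 0.47, given above. In the list, 3 of the 16 were lower without overlap, beside 7.38% of all features.

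Other transporters gave differences of the same order. The subunits of the vacuolar proton ATPase, which acidifies vesicles and lysosomes, were negative in 9 of 11 cases, with a median of -0.0723. Atp6v1d differed by -0.33 ± 0.20 and Atp6v0b by -0.32 ± 0.20. Among sodium and calcium pumps and exchangers the median was -0.0468. There Slc12a2, the sodium-potassium-chloride cotransporter NKCC1, had replicates at 0.13, 0.07 and 0.08 in cerebellum and at 0.36, 0.57 and 0.37 in brain stem-diencephalon. Its replicates did not overlap, and the difference was -0.34 ± 0.15, while the swapped arrays gave 0.26 in each region. Voltage-gated cation channels had a median of -0.0406 with 7 of 15 positive, and Kcnq1, a potassium channel, differed by -0.36 ± 0.16.

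Immediate early genes, which neurons switch on with activity, had a positive difference in 8 of 10 cases, with a median of 0.163. Fos had replicates at 0.53 and 0.70 in cerebellum and at -0.26, 0.23 and 0.04 in brain stem-diencephalon, and Jun had 0.52, 0.03 and 0.23 in cerebellum and -0.37 and -0.14 in brain stem-diencephalon. Both were higher in cerebellum without overlap, by 0.60 ± 0.26 for Fos and 0.51 ± 0.21 for Jun. Fosl2, of the same family, lay the other way at -0.27 ± 0.12, and Egr1 differed by 0.12 ± 0.14. None was called, and on the channel 1 arrays alone the median of the list was 0.016. Genes of the synaptic vesicle cycle had a median of -0.125 with 3 of 10 positive, and the 5 measured genes of glutamate signalling a median of 0.0325.

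Large lists of housekeeping functions lay close to all features. Cytosolic ribosomal proteins had a median difference of 0.0332 over 73 genes, and the proteasome and ubiquitin list -0.0493 over 68. Genes of oxidative phosphorylation had -0.0464 over 60, chaperones -0.0462 over 56 and the cytoskeleton list -0.0572 over 50. Within the last, Stmn1, which destabilises microtubules, differed by 0.63 ± 0.23. Its replicates stood at 0.68, 0.32 and 0.47 in cerebellum and at 0.05, -0.27 and -0.17 in brain stem-diencephalon. The single arrays of Stmn1 overlapped. Number 1 of brain stem-diencephalon gave 0.28 in channel 1 and -0.19 on the swap, against 0.20 on the swapped cerebellum array. Glycolysis genes had a median of -0.124 with 4 of 14 positive, and Gapdh differed by -0.30 ± 0.12. Cell cycle genes had a median of 0.0023 over 80 genes, where the cohesin subunit Rad21 differed by 0.85 ± 0.35 and the mitotic kinase Plk1 by -0.44 ± 0.16. Lists of apoptosis and of cholesterol and fatty acid synthesis had medians of -0.0584 and 0.00346. In none of these lists was a member called.

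**Figure D5:**
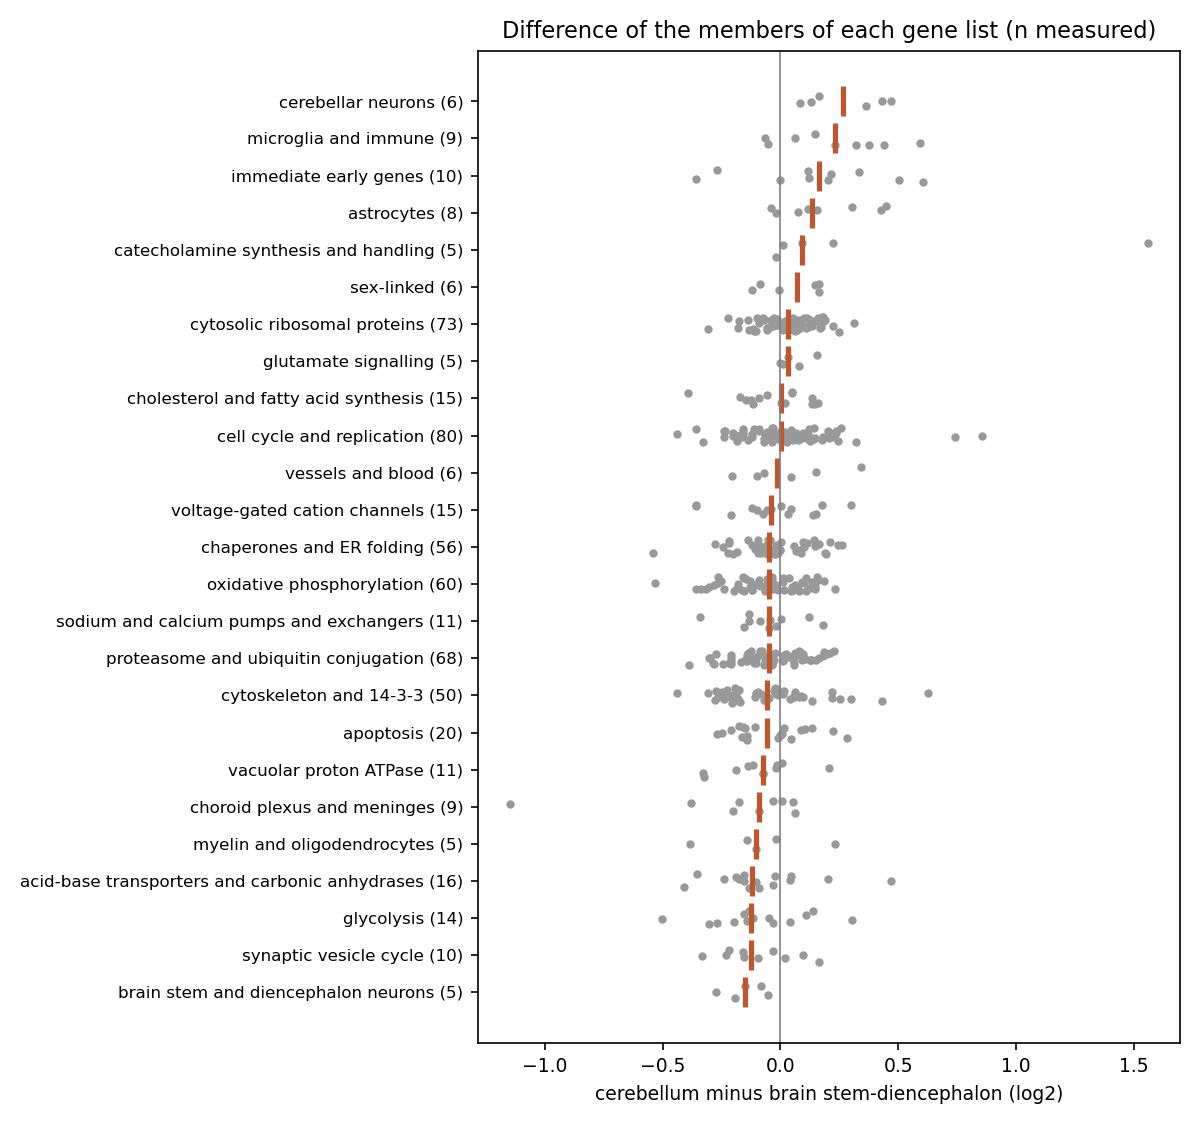
Difference of the log2 ratios, cerebellum minus brain stem-diencephalon, for each measured member (grey points) of the lists with 5 or more members, with the median of each list as an orange bar and the number measured in brackets. Medians lay between -0.15 (brain stem and diencephalon neurons) and 0.264 (cerebellar neurons), and Th was the only member past the adjusted threshold.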

How the data were processed

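The authors deposited a log ratio of the channels for each probe, read here as log2. Their background correction, normalization, log base and channel order are not stated in the sources used here. Of 15245 probes, 9604 had one gene symbol in GEO's platform annotation, 213 several and 5428 none, and Entrez IDs tied 9496 of the first kind to current mouse genes (assembly GRCm38.p6, used for names only). Swapped arrays were multiplied by -1 and each array was centred on its median. Probes with a value on at least 3 of the 4 arrays of each region, cerebellum and brain stem-diencephalon, were kept (11690), and probes of one gene were averaged. Arrays of one region and number formed a replicate. The fit used 18 arrays in 13 replicates of all 4 regions, so that the regions share an estimate of the spread. It held a term per region and one for orientation, with limma 3.58.1 in R 4.3.3 (two-sided moderated tests, Benjamini-Hochberg adjustment over 9887 features, threshold 0.05). The scripts were tested on simulated data.

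Same-numbered replicates of the regions correlated in their deviations at 0.24, 0.0674 and 0.162, and replicates of different numbers at -0.363 to 0.252. The numbers were not taken as pairs in the fit, but these values do not settle whether they are pairs. The 28 gene lists are described by counts and medians and were not tested. The members and lists were chosen with earlier results of these data known. Named were all genes past the threshold, the 12 higher and 12 lower genes with the smallest p and separate replicates among symbols that passed a name filter, up to 3 per list, genes called in both regions, and a few set genes. That filter removed RIKEN clones, predicted genes, pseudogenes and expressed-sequence names, read as prefixes such as a C or D with a number. It also removed C1qb from the higher genes. Some further list members and some genes called in cerebellum only are given as examples outside these rules. Those examples do not enter the counts of named genes under other settings. The targeted gene is not reported here.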

Additional observations from a re-analysis of the deposited data

Results flagged for a closer look

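The null over wild-type ratio of Th differed between cerebellum and brain stem-diencephalon by 1.56 on the log2 scale, by a test of the difference itself (limma's moderated test, adjusted p = 0.0298). All 4 cerebellum arrays lay above all 4 brain stem-diencephalon arrays. The array deposited under both regions gave 1.49, which was not used.

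The ratio of probe 6396 differed by 1.64 in the same test (adjusted p = 0.00777). All 3 cerebellum arrays with a value lay above the 4 brain stem-diencephalon arrays. The probe has no gene name in the tables used here.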

How the results depend on the processing

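As reported, 2 features were called for the difference, 56 in cerebellum and 27 in brain stem-diencephalon, and no named value reversed past the threshold. Counts are given in that order. They were 1, 21 and 12 with only the 2 regions fitted, 1, 355 and 335 on channel 1 arrays alone, and 1, 15 and 14 with a value required on all 8 arrays. With a variance trend and robust moderation they were 1, 3 and 0 (1097 at an unadjusted p under 0.05 in brain stem-diencephalon). Without the orientation term, 150 were called in cerebellum and 49 in brain stem-diencephalon. With all arrays scaled to one spread, 1 was called for the difference. With the repeated array in both regions, 0 were called for the difference (314 unadjusted) and 253 in cerebellum. With it in cerebellum, 301 were called there, and with it in brain stem-diencephalon, 0 for the difference (339 unadjusted). Without number 1 in every region, added after seeing the data, they were 0, 636 and 124. Leaving out single replicates gave 0 to 2, 3 to 74 and 10 to 31. The difference had 0 calls without cerebellum 1 (520 unadjusted), cerebellum 2 (286) or brain stem-diencephalon 1 (342). Cerebellum had 3 calls without its number 2, 13 without its number 3 and 25 without cortex 4. Brain stem-diencephalon had 10 without its number 2 or 3 and 15 without cortex 4. With the replicate number as a block, the counts were 5, 590 and 277. The correlation check did not settle whether the numbers are pairs (0.0674 for number 2). Eif2s3y lay below 0 on 6 of 6 number 1 arrays used and above 0 on 11 of 11 others, over all regions. On the array deposited under both regions, which was not used, it stood at 1.71, also under the cerebellum number 1 title. What a number shares is thus not known. The cause of these shifts was not tested.

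Th passed the threshold in 8 of 19 alternatives (adjusted p 0.00841 to 0.698, limma) and probe 6396 in 10 of 17 (0.00181 to 0.698). The passes of probe 6396 included the fit without cerebellum number 3, which removed none of its data. Of 1956 values of other named genes, 0 passed and 1912 kept their sign. The 24 genes with separate replicates kept it in 419 of 419, which their selection largely fixes. The number of arrays and the missing values limit the precision.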
